A study of Bos taurus with 4 samples.

Results

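Plasminogen activation was followed in bovine granulosa cells through 5 genes, PLAT, PLAU, PLAUR, SERPINE2 and SERPINA5, out of 15216 genes with a symbol on the array. The members were taken by symbol from the platform's probe table, without regard to their values, and each was read by 1 probe. All 5 probes were above background in all 8 pools and entered the test, in which 31917 of 43794 probes were measured. Granulosa cells line the ovarian follicle and nourish the oocyte.

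The cells came from Holstein cattle whose ovaries had been stimulated and then coasted, meaning that hormone was withheld before collection. The donors were rated good or poor by how well their oocytes developed, and pools were made within each rating; the samples are listed as in vitro. On each of 4 arrays 1 good-donor pool (numbers 1 to 4) was hybridised against 1 poor-donor pool (numbers 9 to 12), after linear amplification of total RNA. The good-donor pool carried Cy5 on arrays 1 and 2 and Cy3 on arrays 3 and 4. The design text counts 94 heifers and cows and attributes competent oocytes to cows and incompetent ones to heifers, whereas the title and array names mention heifers only, so donor age class and oocyte competence cannot be told apart here. Neither the hormones, nor how many animals a pool held, nor whether animals were shared between pools is stated. The p-values therefore measure only the spread between these arrays.

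Plasminogen activators are serine proteases that cut the abundant precursor plasminogen to plasmin, which degrades fibrin and matrix proteins and switches on other proteases. PLAT encodes the tissue-type activator and PLAU the urokinase-type activator, and PLAUR encodes the membrane-anchored receptor that holds urokinase at the cell surface. Serpins trap such proteases in an irreversible complex. In the ovary this system is known for remodelling of the follicle wall before ovulation, and granulosa cells of cattle secrete SERPINE2, also called protease nexin-1.

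Levels below are normalized intensities on the log2 scale, and ratios are the log2 of good over poor, averaged over 4 arrays with their SD, so that a negative ratio means a lower signal in the good-donor pools. A level serves to compare pools for the same probe and is not comparable between genes. The intensities of a pool do not separate fewer cells of a type from less RNA per cell. Over all probes, the median foreground was 49.9 to 54.3 in Cy5 and 90.5 to 132 in Cy3, and the SD of the ratios was 0.27 to 0.32 on arrays 1 to 3 and 0.42 on array 4. All 8 granulosa genes listed as a check of the cell type (FSHR, FOXL2, CYP19A1, INHA, INHBA, AMH, CYP11A1 and NR5A2) were measured. FOXL2 exceeded the background of control spots in 4 good-donor and 2 poor-donor pools. Markers of epithelium and leukocytes were measured as well, and their values stand beside the results they moved with.

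No member passed the test between donor groups. The signals of PLAT, PLAU and PLAUR were lower in the good-donor pool on arrays 2, 3 and 4 and higher on array 1, SERPINE2 was higher on 2 arrays and lower on the other 2, and the ratios of SERPINA5 stayed between -0.11 and 0.35. Over all probes, an adjusted limma p under 0.05 was found for 0%, and for 0 of the 5 members. An unadjusted limma p under 0.05 was found for 2.17% of tested probes on the higher side and 1.37% on the lower side, and again for 0 of the 5 members. Ratios that kept 1 sign across the 4 arrays made up 5.11% of probes on the higher side and 4.18% on the lower side, and 0 members were among them. The levels of good-donor and poor-donor pools overlapped for all 5 members, while they were separate for 1.1% of probes with higher and 0.79% with lower levels in good-donor pools.

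**Figure D1:**
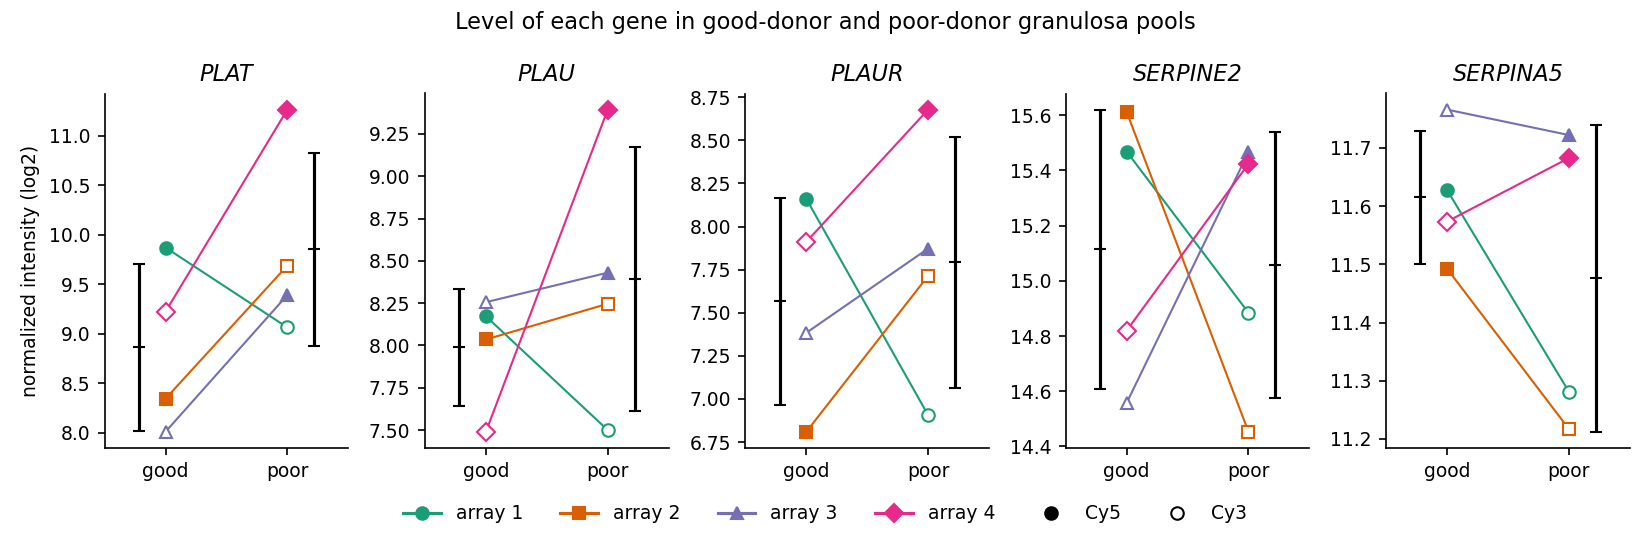
Normalized log2 intensity (vertical axis, one scale per panel) of the 5 genes in good-donor and poor-donor pools, with a line joining the pools of an array, filled symbols for Cy5 and open symbols for Cy3, and black bars for the mean and SD of 4 pools. Array 1 slopes against the other 3 arrays for PLAT, PLAU and PLAUR, and for SERPINE2 the filled symbols lie above the open ones.

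PLAT showed the mean ratio farthest from 0 of the 5 genes. Its level was 9.87, 8.34, 8.01 and 9.22 in good-donor pools on arrays 1 to 4, against 9.06, 9.69, 9.39 and 11.26 in poor-donor pools. The good-donor pools of arrays 2 and 3 were the lowest of the 8, the poor-donor pool of array 4 was the highest, and the groups overlapped through the array 1 pair and the good-donor pool of array 4. The ratio was 0.81 on array 1, and -1.34, -1.38 and -2.04 on arrays 2 to 4. The tissue-type activator was thus 1.75-fold higher in the good-donor pool on array 1 and 2.54-fold, 2.60-fold and 4.11-fold lower in it on the other arrays. A ratio at least 2-fold lower on arrays 2, 3 and 4 together, a pattern chosen after the PLAT values were seen, was found for 38 probes, or 0.119% of those tested.

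Over 4 arrays PLAT had a mean ratio of -0.99 ± 1.24 (SD, n = 4), 1.99-fold lower in good-donor pools. The limma test gave an unadjusted p of 0.0963 and an adjusted p of 1, with a 95% interval from -2.23 to 0.25 on the log2 scale. The interval runs from 4.70-fold lower to 1.19-fold higher in good-donor pools, so neither a large decrease nor a small increase can be told from these data. Without array 1 the mean was -1.59 ± 0.39 (SD, n = 3), for which limma gave an adjusted p of 0.551, and without array 4 it was -0.64 ± 1.25 (SD, n = 3).

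PLAU, the urokinase-type activator, differed mainly on arrays 1 and 4. Its level was 8.17, 8.04, 8.26 and 7.49 in good-donor pools, against 7.50, 8.25, 8.43 and 9.39 in poor-donor pools. Array 4 held both the lowest good-donor pool and the highest poor-donor pool, and on arrays 2 and 3 the pools were close. The ratios were 0.67, -0.21, -0.17 and -1.90 on arrays 1 to 4. Their mean of -0.40 ± 1.08 (SD, n = 4) did not pass (limma adjusted p = 1) and had a 95% interval from -1.49 to 0.68. The sign of this mean rested on array 4, without which it was 0.096 ± 0.50 (SD, n = 3). With median centring in place of loess the PLAU ratio of array 3 was 0.068, above 0.

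PLAUR, which anchors urokinase to the membrane, differed in the same direction as PLAT on each array. Its level was 8.16, 6.81, 7.38 and 7.91 in good-donor pools, against 6.91, 7.71, 7.87 and 8.68 in poor-donor pools. The good-donor pool was higher than its partner only on array 1, by 2.39-fold, and lower by 1.87-fold, 1.40-fold and 1.70-fold on arrays 2 to 4. The mean ratio was -0.23 ± 1.00 (SD, n = 4; limma adjusted p = 1; 95% interval from -1.24 to 0.78). Without array 1 it was -0.72 ± 0.21 (SD, n = 3), and without array 2 it was -0.00053 ± 1.10 (SD, n = 3).

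**Figure D2:**
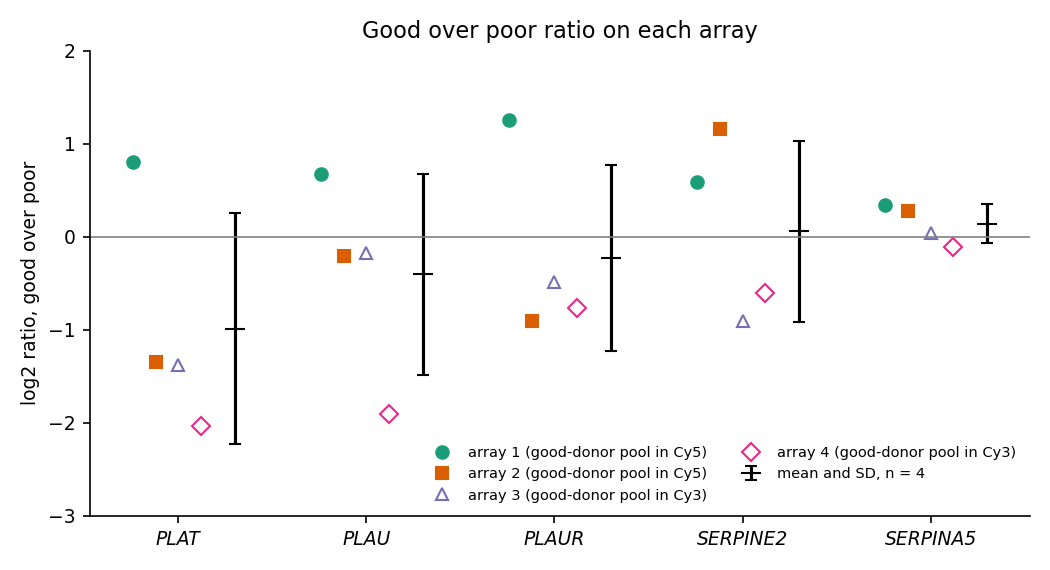
Log2 ratio of good over poor (vertical axis) for each of the 5 genes on 4 arrays, with the mean and SD in black. For PLAT, PLAU and PLAUR array 1 lies above 0 and arrays 2 to 4 lie below it; SERPINE2 is above 0 on arrays 1 and 2 and below it on arrays 3 and 4; SERPINA5 stays between -0.11 and 0.35.

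After loess, the activators and the receptor shared the order of their signs, higher on array 1 and lower on arrays 2 to 4. This order was seen after the fact, and it occurred in 7.53% of all tested probes against 3 of the 5 members. The deposited ratios had it for all 3, and median centring for PLAT and PLAUR. Scanner foreground keeps the difference between dyes, with a higher median over all probes in Cy3 than in Cy5 on every array. Without normalization it had the order for none. There PLAT gave -0.083, -2.31, -0.70 and -1.20, PLAU -0.32, -1.24, 0.55 and -1.05, and PLAUR 0.20, -2.17, 0.24 and 0.11. On array 1 the ratios of PLAT, PLAU and PLAUR stood at the 98.0, 97.2 and 99.2 percentiles of all tested probes, and on array 4 at the 0.667, 0.786 and 3.47 percentiles. On arrays 2 and 3 PLAT stood at the 0.276 and 0.310 percentiles and PLAUR at 0.871 and 3.6, whereas PLAU stood at 14.6 and 17.1. Levels over the 8 pools were also compared, once the mean of each dye was removed. Pearson's r was 0.81 for PLAT and PLAUR, 0.60 for PLAU and PLAUR, and 0.56 for PLAT and PLAU. With SERPINE2 it was -0.27 for PLAT, -0.73 for PLAU and -0.48 for PLAUR. With SERPINA5 it was -0.19 for PLAT, 0.25 for PLAU, 0.34 for PLAUR and -0.14 for SERPINE2. These 8 points share 4 arrays and are given as a description.

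The array-to-array spread of these genes was wide for the platform. The SD of the ratio was larger than in 99.1% of tested probes for PLAT, 98.6% for PLAU, 98.3% for PLAUR and 98.2% for SERPINE2, and than in 60.5% for SERPINA5. The good over poor ratios of arrays 1 and 3 ran against each other over all tested probes (Pearson's r of -0.34 across probes, which are not independent), while arrays 3 and 4 had r = 0.29. All members but SERPINA5 thus lay among the most variable ratios, and their means in the fit without a dye term are imprecise. For SERPINE2 the SD includes the difference between dye orientations, whose mean ratios were 0.87 and -0.76. In the deposited ratios its SD was 0.26. The percentiles are over all tested probes, with no matching for brightness.

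Cell types other than granulosa can also express activators, and the medians of several marker lists were above 0 on array 1 and below 0 on arrays 2 to 4. Of all measured genes 9.56% had that order, and 51.6% had a lower mean in good-donor pools. The 8 epithelium markers (EPCAM, KRT7, KRT8, KRT18, CLDN4, OVGP1, PIGR and KRT4) had median ratios of 0.41, -1.48, -1.96 and -2.71 on arrays 1 to 4, and 8 of 8 had a lower mean in good-donor pools. The order of PLAT was that of 5 of the 8, while EPCAM, PIGR and KRT4 were lower in the good-donor pool on all 4 arrays, at -0.20, -0.96 and -1.08 on array 1. These 3 had unadjusted limma p-values of 0.0292, 0.0127 and 0.0149, each with an adjusted p of 1. Among all measured genes, 1.92% had an unadjusted limma p under 0.05 with a lower mean, and 4.65% were lower on all 4 arrays. The values are those of the brightest probe of each gene. Another EPCAM probe had a mean ratio of 0.0203, and further PIGR probes had -1.7 and -0.265. The summed linear intensity of the epithelium markers ranged from 3469 to 16530 in good-donor pools and from 8402 to 44087 in poor-donor pools. The 9 measured leukocyte markers of 10 had medians of 0.12, -0.29, -0.06 and -1.13, with 9 of 9 lower means and sums of 1240 to 1792 in good-donor and 1555 to 5980 in poor-donor pools. Of these 9, 3 had the order of PLAT, and CD3D and S100A9 were lower in the good-donor pool on all 4 arrays. The 4 cumulus expansion genes (HAS2, PTX3, TNFAIP6 and PTGS2), which respond to the ovulatory signal, had medians of 1.35, -0.64, -0.28 and -0.19, with 2 of 4 lower means and sums of 742 to 10604 in good-donor and 1622 to 5440 in poor-donor pools. Of these 4, only PTX3 and TNFAIP6 had the order of PLAT. HAS2 and PTGS2 lay near background, at mean levels of 6.23 to 6.28, and each exceeded it in only 2 good-donor pools. The part of these cells or of this response in the PLAT, PLAU and PLAUR ratios was not tested.

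The medians of the other marker lists did not follow this order. Mouse oocytes store PLAT transcripts, but only 3 of 7 oocyte markers (ZP2, ZP3 and BMP15) were measured, at mean levels of 6.31 to 6.44, close to background. Their medians were 0.035, -0.051, -0.0065 and 0.057, with sums of 246 to 256 in good-donor and 244 to 262 in poor-donor pools. The other 4 oocyte markers, GDF9, DAZL, ZP4 and NLRP5, were not above background in enough pools to be tested. The 5 measured endothelial markers of 6 had medians of 0.076, 0.023, -0.13 and -0.016, with sums of 410 to 520 in good-donor and 405 to 516 in poor-donor pools. Of these, CDH5, VWF and TEK were also close to background, at mean levels of 6.33 to 6.45. The 8 granulosa markers had medians of -0.011, 0.25, 0.21 and 0.13, with 4 of 8 above 0 on array 1, and 8 of 8 had a higher mean in good-donor pools, against 48.4% of all measured genes. Their sums were 68507 to 114525 in good-donor and 46508 to 108240 in poor-donor pools. INHA and INHBA, with mean levels of 14.67 to 15.16, were the brightest of this list and weigh most in the sums. As both lie near the top of the scale, the sums do not measure granulosa content. Theca and stroma markers, 7 of 7 measured, had medians of 0.23, -0.15, -0.14 and 0.076, with sums of 5522 to 8466 in good-donor and 5470 to 8952 in poor-donor pools. In this list CYP17A1 and TAGLN were close to background, at mean levels of 6.22 to 6.32, and ACTA2 was the brightest, at 12.1 in both donor groups. Ratios of probes close to background say little about these cell types.

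**Figure D3:**
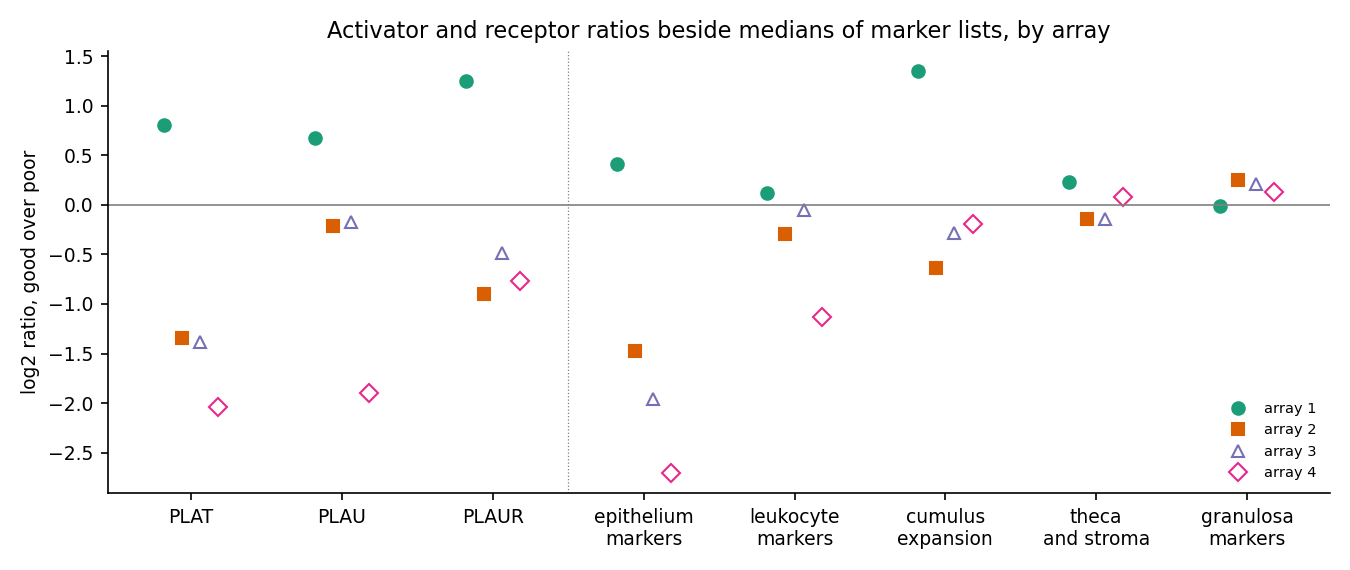
Log2 ratio of good over poor (vertical axis) on arrays 1 to 4 for PLAT, PLAU and PLAUR, left of the dotted line, and the median ratio of 5 marker lists, right of it; filled symbols mark the good-donor pool in Cy5. Epithelium markers are above 0 on array 1 (0.41) and lowest on array 4 (-2.71), and granulosa markers stay between -0.011 and 0.25.

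SERPINE2, the inhibitor that traps urokinase, the tissue-type activator, plasmin and thrombin, gave one of the brightest signals on the array in every pool. Its foreground was 98.7%, 97.4%, 78.6% and 98.9% of the brightest probe of its channel in good-donor pools on arrays 1 to 4, against 100%, 68.6%, 99.5% and 96.5% in poor-donor pools. In the poor-donor pool of array 1 it was itself the brightest probe, and its lowest rank in any pool was 32. The median pixel of its spot reached 64908, where the highest median pixel in any file was 65494. A signal at the top of the scale bounds the ratio, and no saturation flags are in the files, so the size of SERPINE2 differences is uncertain.

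The SERPINE2 ratios followed the dye. Its level was 15.47, 15.61, 14.56 and 14.82 in good-donor pools, against 14.88, 14.45, 15.47 and 15.42 in poor-donor pools. The 4 Cy5 values were all above the 4 Cy3 values, whichever donor group they came from. The ratios were 0.58 and 1.16 on the arrays whose good-donor pool was in Cy5, and -0.91 and -0.60 on those where it was in Cy3. The dye term of the limma fit was 0.81 (log2 of Cy5 over Cy3) with an unadjusted p of 0.00407 and an adjusted p of 0.200, where 16.6% of tested probes had an unadjusted limma p under 0.05 for this term. INHA and INHBA, the inhibin subunit genes, singled out here after their values were seen, had the same order of signs, at 1.25, 1.76, -0.60 and -0.48 for INHA and 0.78, 1.92, -1.33 and -0.68 for INHBA. They too reached the top of the scale, at 93.5% to 100% of the brightest probe in good-donor and 43.8% to 95.8% in poor-donor pools for INHA, and 59.1% to 100% in good-donor and 41.8% to 100% in poor-donor pools for INHBA, so the size of their ratios is uncertain as well. The mean SERPINE2 ratio over both orientations, in which such a dye effect cancels, was 0.057 ± 0.98 (SD, n = 4, limma adjusted p = 1). This SD and the 95% interval, from -0.93 to 1.04, still include the difference between dye orientations. With a dye term in the limma fit the mean was the same, and the 95% interval ran from -0.31 to 0.42.

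This opposition depended on how the intensities were treated. The scanner foreground, without normalization, gave SERPINE2 ratios of 0.040, 0.51, -0.42 and 0.056 on arrays 1 to 4. The deposited normalized ratios, turned to good over poor, gave -0.038, 0.44, -0.18 and 0.12. After normexp the signs were opposite between the dye orientations, both with loess, as above, and with median centring, at 0.61, 1.11, -0.78 and -0.40. Over all probes the median foreground was higher in Cy3 than in Cy5 on every array, whereas the SERPINE2 spot was brighter in Cy5 on arrays 1, 2 and 3.

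SERPINA5, or protein C inhibitor, which blocks activated protein C and urokinase, was the steadiest member after normalization. Its level was 11.63, 11.49, 11.77 and 11.57 in good-donor pools, against 11.28, 11.22, 11.72 and 11.68 in poor-donor pools. All 8 values lay within 0.55 of each other on the log2 scale, and the good-donor pool was the higher on arrays 1, 2 and 3. The ratios were 0.35, 0.28, 0.044 and -0.11. Their mean of 0.14 ± 0.21 (SD, n = 4) corresponds to 1.10-fold higher levels in good-donor pools, with a limma adjusted p of 1. The 95% interval from -0.10 to 0.38 is the narrowest of the 5 and bounds the change between 1.07-fold lower and 1.30-fold higher in good-donor pools.

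The sign of SERPINA5 on array 4 also changed with the normalization. With median centring the good-donor pool was higher on all 4 arrays, at 0.17, 0.084, 0.28 and 0.22, a sign pattern that 3.16% of tested probes had under that normalization. The mean was then 0.19 ± 0.084 (SD, n = 4), with an unadjusted limma p of 0.0378 and an adjusted p of 1, where the adjusted p over all alternatives was 0.854 to 1. The deposited ratios gave 0.26, 0.30, 0.18 and 0.016, higher on all 4 arrays as well, as 5.62% of tested probes were. Scanner foreground without normalization, which keeps the difference between dyes, gave -0.43, -0.54, 0.66 and 0.69. There the sign of SERPINA5 followed the dye orientation.

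**Figure D4:**
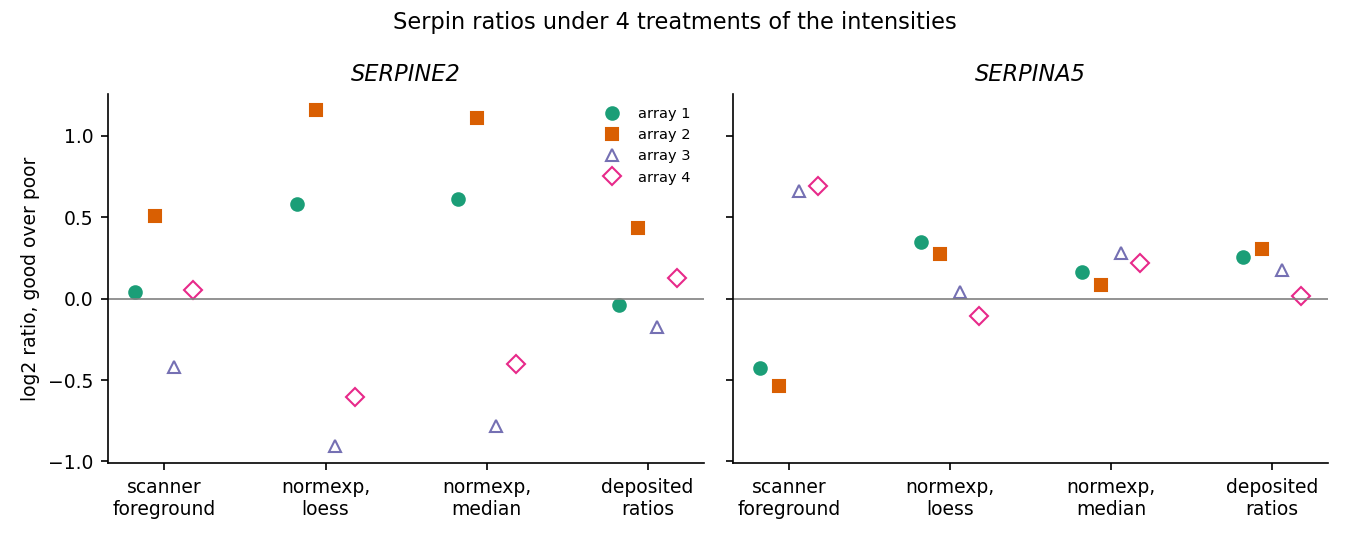
Log2 ratio of good over poor (vertical axis) of the serpins SERPINE2 and SERPINA5 on 4 arrays from scanner foreground, from normexp with loess, from normexp with median centring and from the deposited ratios; filled symbols mark the good-donor pool in Cy5. SERPINE2 spans -0.91 to 1.16 after loess and -0.18 to 0.44 in the deposited ratios, and SERPINA5 stays above 0 on all arrays with median centring.

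No other gene of the plasminogen system passed the test. Of 47 genes listed for the pathway, 34 were measured, of which 16 had a higher and 18 a lower mean in good-donor pools, and 0 passed the adjusted threshold. Their median ratio was -0.024, beside -0.0030 over 12598 measured genes, of which 48.4% had a higher and 51.6% a lower mean. The 4 ratios had 1 sign for 0 of the 34, against 5.42% of genes on the higher and 4.65% on the lower side. An unadjusted limma p under 0.05 was found for 0 of the 34, against 2.71% and 1.92%. The substrate gene PLG was not above background in enough pools to be tested.

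Because no listed gene kept its sign, the genes described next were chosen after their values were seen, for their direct part in plasmin formation or matrix turnover. ANXA2 and S100A10 form the surface complex that binds plasminogen and the tissue-type activator. ANXA2 had ratios of 1.26, -0.36, -0.70 and -1.15 on arrays 1 to 4, and S100A10 had 0.80, 0.094, -0.17 and -1.43. Both were highest on array 1 and lowest on array 4, as PLAT was. ENO1, the third measured gene of the plasminogen-binding list, ran otherwise, at -0.50, -0.81, -0.16 and 0.15. The mean of this brightest ENO1 probe was -0.33, and another ENO1 probe had a mean of 0.102. The means of ANXA2 and S100A10, -0.24 ± 1.05 and -0.18 ± 0.93 (SD, n = 4), each came with a limma adjusted p of 1.

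Among the other inhibitors, SERPINB2, which blocks urokinase, had ratios of 0.54, 0.38, -0.96 and -1.18 (mean -0.30 ± 0.89, SD, n = 4). Its sign followed the dye orientation, as that of SERPINE2 did. A2M, a broad trap for proteases including plasmin, had 1.58, -1.01, -0.44 and -2.19 (mean -0.52 ± 1.58, SD, n = 4). SERPINF2, the direct plasmin inhibitor, stayed between -0.19 and 0.10 near background, with mean levels of 6.83 ± 0.074 for the good-donor pools, against 6.86 ± 0.11 for the poor-donor ones (SD, 4 pools each).

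Among 8 measured genes of matrix turnover the order of PLAT was found in 2, TIMP1 and ADAMTS1. TIMP1, an inhibitor of matrix metalloproteinases, had 3.81, -2.05, -3.60 and -0.94, and ADAMTS1, a protease that cleaves proteoglycans of the ovulatory follicle, had 2.80, -1.25, -1.02 and -1.73. The other 6 had other orders, among them MMP14, a membrane-bound matrix metalloproteinase, at 0.60, -0.42, 0.61 and 0.62, and TIMP2, another inhibitor, at 0.30, 0.23, -0.38 and 0.28. Of the 34 measured pathway genes 8 were higher on array 1 and lower on arrays 2 to 4, which is 23.5% of them, against 9.56% of all measured genes. The 8 were ANXA2, SERPINE3, A2M, ITGAV, ADAMTS1, TIMP1, F3 and THBD. Genes of 1 pool are not independent, and the order was picked from the members, so the share is a description.

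Genes whose levels over the 8 pools were most like those of each member were taken among 10460 genes, by Pearson's r after removing the mean of each dye. For PLAT they were FKBP1A (r = 0.99), MARCHF3 (r = 0.98) and YRDC (r = 0.98), for PLAU GSAP (r = 0.98), CD48 (r = 0.97) and S100A4 (r = 0.97), and for PLAUR CSRP3 (r = 0.98), PRKAG2 (r = 0.96) and SGK1 (r = 0.95). CD48 is a surface protein of leukocytes, and SGK1 is a kinase induced by hormones and stress. For SERPINE2 they were EXT2 (r = 0.96), INVS (r = 0.95) and PCYOX1L (r = 0.95), and for SERPINA5 CACNB4 (r = 0.99), DHRSX (r = 0.98) and ZMYM4 (r = 0.96). The 8 points share arrays and the list is the top of many genes, so these values describe likeness in these pools only.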

How the data were processed

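The deposited scanner files give linear foreground and background intensity for each spot, read at 635 nm for Cy5 and 532 nm for Cy3 per the file headers, with no flags. The authors also deposited normalized log2 ratios, used as an alternative. Set against the scanner ratios they ran as poor over good on all arrays (Pearson's r with good over poor of -0.98, -0.97, -0.96 and -0.98), with column medians of 0.023, 0.0039, -0.015 and -0.029, and their normalization and centring stay unknown.

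Mean foreground was corrected with median background by normexp (offset 50), then normalized by loess within arrays (1418 control spots at weight 0) and by Aquantile between them (limma 3.58.1, R 4.3.3). Tested probes exceeded the 95th percentile of 757 dark and negative control spots in at least 4 of 8 channels. The mean good over poor ratio was tested against 0 by lmFit and eBayes, two-sided, with Benjamini-Hochberg adjustment over 31917 probes, a threshold of 0.05 and 3 residual and 1.98 prior degrees of freedom. The code was tested on simulated ratios. The number of arrays limits the precision.

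Symbols are those of the old platform annotation (21790 probes with 1, 0 with several, 22004 with none), and 982 of 15229 were updated through RefSeq synonyms (ARS-UCD2.0). Genes outside the 5 members were read by their brightest tested probe. The naming rule took pathway genes past the threshold, or else up to 8 by smallest p with 1 sign on 4 arrays, and PLG in any case; none qualified. A further listed gene is not reported here. The 3 genes most like each member came from genes above background in all 8 channels. The members and lists were chosen with earlier results of these data known. Alternatives changed the background, normalization, filter, dye term, model (separate channels, statmod 1.5.0), weights, source and arrays.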

Additional observations from a re-analysis of the deposited data

Results flagged for a closer look

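SERPINE2 had mean log2 ratios of opposite sign in the dye orientations, 0.87 where the good-donor pool was in Cy5 and -0.76 where it was in Cy3, with a limma adjusted p of 0.200 for the dye term. After normexp and loess it was the only one of the 5 members whose sign followed the dye on all 4 arrays. In scanner foreground without normalization the sign of SERPINA5 did so. The means by orientation, Cy5 then Cy3, also had opposite signs for PLAU (0.23 and -1.04), PLAUR (0.18 and -0.63) and SERPINA5 (0.31 and -0.033). PLAT was below 0 in both (-0.27 and -1.71). The dye term of SERPINA5 had an unadjusted limma p of 0.0280 and an adjusted p of 0.265.

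Of 29 sets of 4 values, 2 held a value far from the rest, where chance gives about 1.45, and in both this was array 1. The median log2 ratio of the other protease inhibitors of the pathway (SERPINB2, SERPINF2, SERPINI1, SERPINE3, SERPINC1, SERPINA1, SERPING1 and A2M) was 0.40 on array 1 and -0.16 to -0.097 on arrays 2 to 4. For all 34 measured pathway genes it was 0.28 on array 1, and arrays 2 to 4 lay between -0.14 and -0.072. These genes include the inhibitors just named, so the 2 sets are not separate occurrences. Neither the ratios nor the levels of any member stood out in this way.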

How the results depend on the processing

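The count of probes past the adjusted threshold was 0 under all 13 alternatives, with a smallest adjusted p of 0.0639 with separate channels. Probes at an unadjusted limma p under 0.05 numbered 1132, but 642 with median centring, 1839 with a dye term and 1705 without array 1. Each member stayed short of the threshold in each alternative, with an adjusted p of 0.551 or more. Leaving out an array in turn moved the mean ratio of PLAT between -1.59 and -0.64, that of PLAUR between -0.72 and -0.00053 and that of SERPINA5 between 0.070 and 0.22. PLAU ranged from -0.76 to 0.096 and turned its sign without array 4. SERPINE2 ranged from -0.31 to 0.38, turned its sign without array 1 (-0.12) and without array 2 (-0.31), and gave -0.038 with array weights; the cause was not tested. The other 9 alternatives kept the sign of PLAT (-1.04 to -0.96), PLAU (-0.45 to -0.37), PLAUR (-0.28 to -0.20) and SERPINA5 (0.13 to 0.19). No member has another probe, so that alternative gave no value. Signals near the top of the scale limit SERPINE2, and 4 arrays limit all 5 genes.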

Other observations

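Genes of clotting and of protein C activation were measured in part and were singled out after their values were seen. Thrombin, which SERPINE2 blocks, and activated protein C, which SERPINA5 blocks, act in these processes. F2, which encodes prothrombin, gave 1.84, -0.17, -0.37 and 0.27 on arrays 1 to 4 as the log2 of good over poor (mean 0.39 ± 1.00, SD, n = 4), and its receptor F2R had -0.25, 0.50, 0.016 and -0.23. THBD, the thrombin cofactor that turns thrombin towards protein C, had 0.97, -0.44, -0.26 and -1.77, and PROCR, the protein C receptor, had 0.35, -0.85, 0.19 and -0.63. F3, tissue factor, had 0.69, -0.47, -0.33 and -0.28. All 5 had a limma adjusted p of 1, and PROC itself was not above background in enough pools to be tested.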
